A study of Mus musculus with 12 samples.

Results

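Alveolar macrophages patrol the inner surface of the lung. The genes described here are those expressed by these cells in naive mouse lungs and in lungs 2 h after reperfusion, the return of blood flow to a transplanted organ. A gene was included when its RPKM (its reads divided by gene length in kilobases and by library size) reached 1 in 4 or more of these 8 libraries, which left 10934 of the 43430 genes in the deposited table. The 8 libraries, 4 per group, belong to a series of 12, and the other 4 were taken 24 h after reperfusion. All are labelled as alveolar macrophages from lungs of male mice aged 14 weeks, with genotype Cx3cr1gfp/+ on a B6 background. Reperfusion libraries have Allo in their titles, and no label says what it stands for. The labels do not say whether each library is a different animal, and p-values therefore reflect library-to-library spread that may be technical.

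Library totals, read from the steps of the deposited values, were 6112586 to 8796071 reads in naive and 7242824 to 10347265 reads at 2 h. Of 19 tested alveolar macrophage markers 3 rose (15.8%, against 13.6% of all genes tested), 8 fell (42.1%, against 19.7%) and 8 did not pass. Their summed level was 13070 to 13470 RPKM in naive and 9608 to 10720 RPKM at 2 h. Chil3 was the largest part of that sum, with means of 7780 RPKM in naive and 4970 RPKM at 2 h. The sum therefore mostly follows Chil3, and Mrc1, Plet1 and Net1 rose. Summed markers of T and NK cells were 6.04 to 10.2 RPKM in naive and 1.72 to 5.25 RPKM at 2 h. Those of B cells were 9.74 to 16.6 RPKM in naive and 3.21 to 9.72 RPKM at 2 h, and those of interstitial macrophages 6.96 to 11.6 and 3.21 to 5.81 RPKM. Summed neutrophil markers overlapped, at 26.3 to 35 RPKM in naive and 28.4 to 40.7 RPKM at 2 h. In a bulk library, fewer cells of a type and less RNA per cell cannot be told apart, and the part of these lower lymphocyte and interstitial macrophage signals in the falls below was not tested.

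An alveolar macrophage senses the air space through pattern recognition and chemoattractant receptors, clears particles and surfactant lipid, and answers stress within hours through transcription factors already present in the cell. Glucocorticoids, cyclic AMP, metals and cold each have a small set of target genes that respond quickly in many cell types. Ribosome assembly, RNA splicing and protein turnover follow as a cell changes what it makes.

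Of the 10934 genes tested, 1489 (13.6%) rose at 2 h and 2156 (19.7%) fell, by limma on log2(RPKM + 1) with a Benjamini-Hochberg adjusted p under 0.05. These shares are the background for every list count below. With median-ratio scaling of the libraries 50.9% of the called genes were higher at 2 h, against 40.9% with the values as deposited. Most changes were small. The median size among called genes was 0.42 on the log2 scale, 216 genes (1.98%) rose and 70 (0.64%) fell by at least 1 on that scale, and a low gene's change is understated on it. All 2 h libraries lay above all naive libraries in 1585 genes (14.5%) and below them in 2260 (20.7%). The 18 rises of at least 3 on the log2 scale all belonged to 38 genes that were near 0 in naive, which are described last. The share of rises went with expression level more than with gene length. With genes split into 4 equal classes by mean level, 9.55% rose in the lowest class and 18.1% in the highest. With 4 classes by gene length, 12.8% rose in both the shortest and the longest. Falls differed from this, with 18.1% in the lowest and 19.1% in the highest class by level. By length, 15.4% fell in the shortest class and 20.3% in the longest. The part of the log2(RPKM + 1) scale, which understates low genes, in the pattern of rises by level was not tested.

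**Figure D1:**
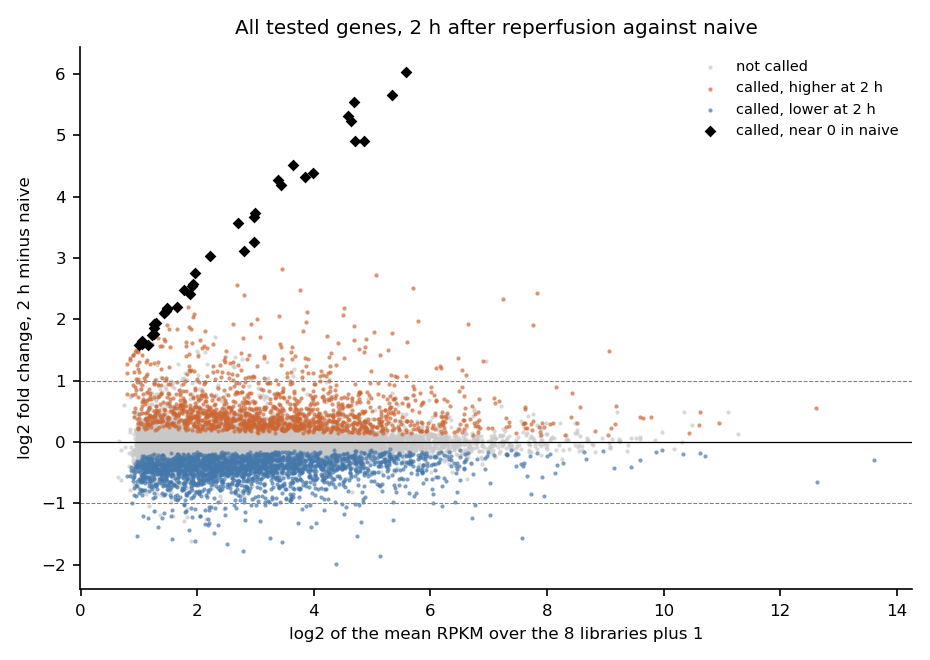
Log2 fold change at 2 h (y axis) against the log2 of the mean RPKM plus 1 over the 8 libraries (x axis), with 1 point per tested gene, coloured by whether limma called it, and dashed lines at 1 and -1. Black diamonds are the 38 genes near 0 in naive, which hold all 18 changes of at least 3.

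Genes that glucocorticoid hormones are known to induce were higher at 2 h in more cases than genes at large. 10 of the 18 genes tested rose (55.6%, against 13.6% of all genes), 1 fell (5.56%, against 19.7%) and 7 missed the threshold. The median log2 fold change of the list was 0.57, against -0.04 over all genes tested. Per1 and Mt2 are among these risers and are counted again below, with clock genes and with metallothioneins, so the lists are not separate. Klf9, a transcription factor gene that the glucocorticoid receptor binds and induces, was 8.36, 7.15, 7.54 and 7.72 RPKM in the 4 naive libraries and 46.4, 35.7, 33.4 and 28.1 RPKM at 2 h. The groups did not overlap (log2 fold change 2.07 ± 0.13, SE, adjusted p = 4.38e-05). Sgk1, a kinase gene of the same kind, rose 1.7-fold, and Cebpb, a transcription factor of inflammatory macrophages, rose 1.52-fold. Ddit4, an inhibitor of mTOR signalling, was 0.135 to 1.19 RPKM in naive and 1.32 to 1.8 RPKM at 2 h. Angptl4, an inhibitor of lipoprotein lipase that the list also holds, fell to 63.2% of its naive mean (adjusted p = 0.0274), a call lost in 5 of 20 other settings. Tsc22d3, which encodes the anti-inflammatory protein GILZ, is a standard member of this list and was not called (log2 fold change 0.05, adjusted p = 0.799). Genes named in this and the following paragraphs beyond the naming rule were picked after their values were seen.

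Clock genes moved alongside. The circadian clock is a loop in which PER and CRY proteins repress their own transcription, and both Per genes also respond acutely to hormones and cyclic AMP. Of 15 tested clock genes 6 rose (40%, against 13.6% of all genes), 1 fell (6.67%, against 19.7%) and 8 did not pass. Their median was 0.35. Per2 was 4.31, 6.45, 5.38 and 4.59 RPKM in naive and 28.3, 23, 16.7 and 15.9 RPKM at 2 h, a 4.05-fold rise (adjusted p = 0.000383). Per1 was 4.54, 5.12, 5.36 and 5.37 RPKM in naive and 25, 14, 11.1 and 20.2 RPKM at 2 h (adjusted p = 0.00138). Both were above every naive library in all 4 libraries at 2 h, Per1 most in replicates 1 and 4 and Per2 most in replicates 1 and 2. Nr1d1, a repressor of the same loop, rose 1.85-fold, Tef, an output transcription factor, 2.65-fold, and Bhlhe40, a repressor, 1.51-fold. The hour of day at which the cells were taken is not in the labels, so time of day and time after reperfusion cannot be told apart.

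Genes of the cyclic AMP and CREB response went both ways. 5 of the 16 genes tested rose (31.2%, against 13.6% of all genes), 3 fell (18.8%, against 19.7%) and 8 missed the threshold. Sik1, a kinase that restrains CREB signalling, was 1.39, 2.32, 2.49 and 3.66 RPKM in naive and 21.3, 18.7, 4.93 and 4.62 RPKM at 2 h (adjusted p = 0.0265). It was high in replicates 1 and 2 and close to naive in replicates 3 and 4, and it was not called without 2 h replicate 1 or 2 or without naive replicate 1, 2 or 3. Ptger2, a receptor for prostaglandin E2, fell from 12.8 to 15.5 to 6.6 to 8.56 RPKM, while Ptger4, another receptor for the same ligand, rose 1.76-fold. Creb1 itself fell to 52.6% of its naive mean (adjusted p = 0.00126).

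Metallothioneins are small proteins that bind zinc and copper, and the transcription factor MTF1 drives them through short metal response elements near the start site. The promoters of Mt1, Mt2 and the zinc exporter gene Slc30a1 are shown because these 3 genes changed in parallel across the libraries. Each window covers 250 bases before the RefSeq start (GRCm38.p6) and 30 bases after it, on the plus strand, with the core TGCACNC or TGCGCNC in capitals on either strand.
Mt1, chr8:94178839-94179118: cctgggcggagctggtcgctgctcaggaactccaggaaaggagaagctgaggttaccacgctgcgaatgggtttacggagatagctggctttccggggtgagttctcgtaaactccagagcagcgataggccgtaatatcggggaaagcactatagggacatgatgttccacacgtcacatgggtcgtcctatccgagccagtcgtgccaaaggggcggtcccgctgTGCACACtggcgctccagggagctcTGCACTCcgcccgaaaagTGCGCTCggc
Mt2, chr8:94172368-94172647: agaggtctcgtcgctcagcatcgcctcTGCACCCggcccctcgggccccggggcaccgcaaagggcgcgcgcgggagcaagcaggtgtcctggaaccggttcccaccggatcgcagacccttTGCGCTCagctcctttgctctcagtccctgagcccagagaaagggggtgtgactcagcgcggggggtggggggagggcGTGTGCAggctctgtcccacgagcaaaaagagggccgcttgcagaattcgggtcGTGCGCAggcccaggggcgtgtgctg
Slc30a1, chr1:191906531-191906810: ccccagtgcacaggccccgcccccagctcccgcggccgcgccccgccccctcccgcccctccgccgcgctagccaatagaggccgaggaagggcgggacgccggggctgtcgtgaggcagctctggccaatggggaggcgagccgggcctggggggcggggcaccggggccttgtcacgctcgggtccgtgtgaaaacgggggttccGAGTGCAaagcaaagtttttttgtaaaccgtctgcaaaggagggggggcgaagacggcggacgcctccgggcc
The Mt2 window holds 4 matches, the Mt1 window 3 and the Slc30a1 window 1. Among 32851 RefSeq promoter windows of the same length, 24.1% hold at least 1 match, 1.73% at least 3 and 0.405% at least 4. A match is a run of letters and not a measured binding site.

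Mt2 was 51.3, 58.1, 47.3 and 61.8 RPKM in naive and 178, 511, 802 and 106 RPKM at 2 h (log2 fold change 2.43 ± 0.56, SE, adjusted p = 0.0124). Mt1 was 249.9, 262, 252 and 275 RPKM in naive and 500.3, 969, 1351 and 423 RPKM at 2 h (adjusted p = 0.0109). Slc30a1 was 2.53, 3.39, 2.28 and 2.73 RPKM in naive and 5.52, 11.8, 17.6 and 4.29 RPKM at 2 h (adjusted p = 0.0215). All 3 were highest in replicate 3, next highest in replicate 2 and lowest in replicate 4, and no 2 h library overlapped naive. Slc30a1 was not called without naive replicate 1, naive replicate 3 or 2 h replicate 2. Of the zinc importers, Slc39a14 rose 2-fold and Slc39a6 1.29-fold, whereas Slc39a10 fell from 11.5 to 13.1 to 4.47 to 10.5 RPKM. The call of Slc39a10 was lost in 6 of 20 other settings, among them leaving out any 1 naive library. Of 17 tested metallothionein and zinc transporter genes 5 rose (29.4%, against 13.6% of all genes), 2 fell (11.8%, against 19.7%) and 10 did not pass. Their median was 0.09.

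**Figure D2:**
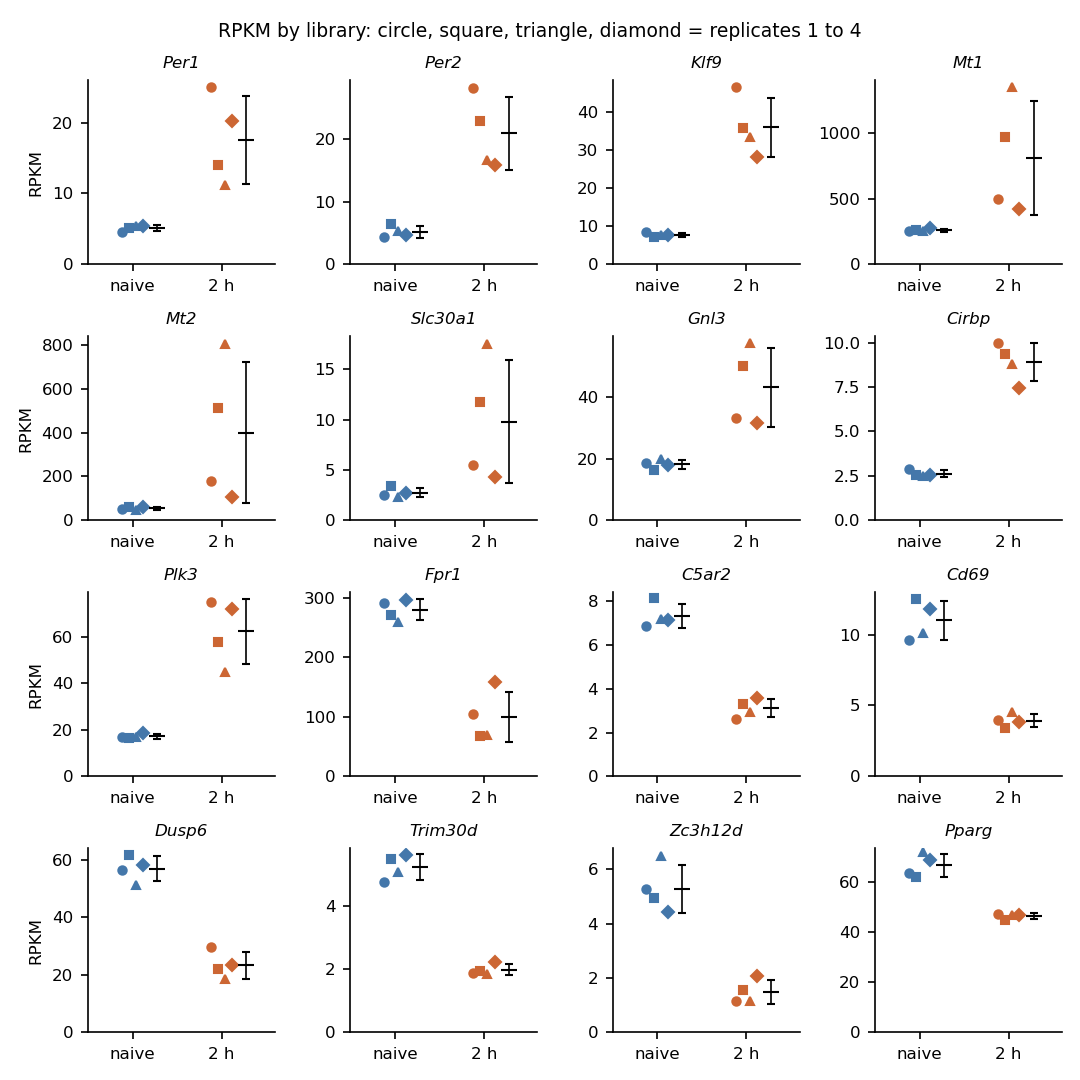
RPKM (y axis, from 0) of 16 genes in the 4 naive and 4 libraries at 2 h, with 1 symbol per library and the group mean with its SD in black. Mt1, Mt2 and Slc30a1 are highest in 2 h replicate 3 (triangle), and Fpr1 is closest to naive in 2 h replicate 4 (diamond).

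RNA-binding proteins rose more often than fell. Of 42 tested splicing and RNA-binding genes 18 rose (42.9%, against 13.6% of all genes), 4 fell (9.52%, against 19.7%) and 20 did not pass. Their median was 0.13. Cirbp, an RNA-binding protein known for its induction by mild cold, was 2.91, 2.52, 2.5 and 2.57 RPKM in naive and 9.99, 9.39, 8.78 and 7.45 RPKM at 2 h (log2 fold change 1.45 ± 0.09, SE, adjusted p = 3.09e-05). Its 4 libraries at 2 h lay close together and far above naive. Rbm3, the other cold-inducible protein of this family, was 9.4 to 12.9 RPKM in naive and 14.5 to 20.1 RPKM at 2 h (adjusted p = 0.00461). Hnrnpa1, a splicing repressor, rose 1.51-fold and Srsf5, a splicing activator, 1.55-fold. Tra2a, another splicing activator, fell to 57.6% of its naive mean and Clk1, a kinase that phosphorylates SR proteins, to 61.2%. Rsrp1, a gene for an arginine and serine rich protein, fell from 32.8 to 43.9 to 14.1 to 17.1 RPKM (adjusted p = 8.38e-05).

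Ribosome biogenesis genes rose in many cases and none fell. These genes make and assemble ribosomal subunits in the nucleolus. Of 43 tested 21 rose (48.8%, against 13.6% of all genes), 0 fell (against 19.7%) and 22 did not pass, with a median of 0.33. Across the 20 other settings the risers numbered 13 to 26, and none fell in any. Gnl3, encoding the nucleolar protein nucleostemin, was 18.7, 16.3, 19.7 and 17.9 RPKM in naive and 33.3, 50.2, 57.7 and 31.5 RPKM at 2 h (adjusted p = 0.00272). Replicates 2 and 3 were higher than replicates 1 and 4, as for the metallothioneins. Wdr43, a component of the small subunit processome, was 13.1 to 14.6 RPKM in naive and 22.3 to 27.6 RPKM at 2 h. Nolc1, a nucleolar scaffold, rose 1.71-fold, Ncl, which encodes nucleolin, 1.4-fold and Fbl, the methyltransferase of ribosomal RNA, 1.31-fold. Mitochondrial ribosomal proteins, by contrast, were called less often than genes at large. Of 76 tested 3 rose (3.95%, against 13.6% of all genes), 9 fell (11.8%, against 19.7%) and 64 did not pass. Proteasome genes build the main protease of the cytosol. Of 47 tested 13 rose (27.7%, against 13.6% of all genes), 1 fell (2.13%, against 19.7%) and 33 did not pass. Psmb6, a catalytic subunit, rose 1.59-fold (adjusted p = 0.000101).

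**Figure D3:**
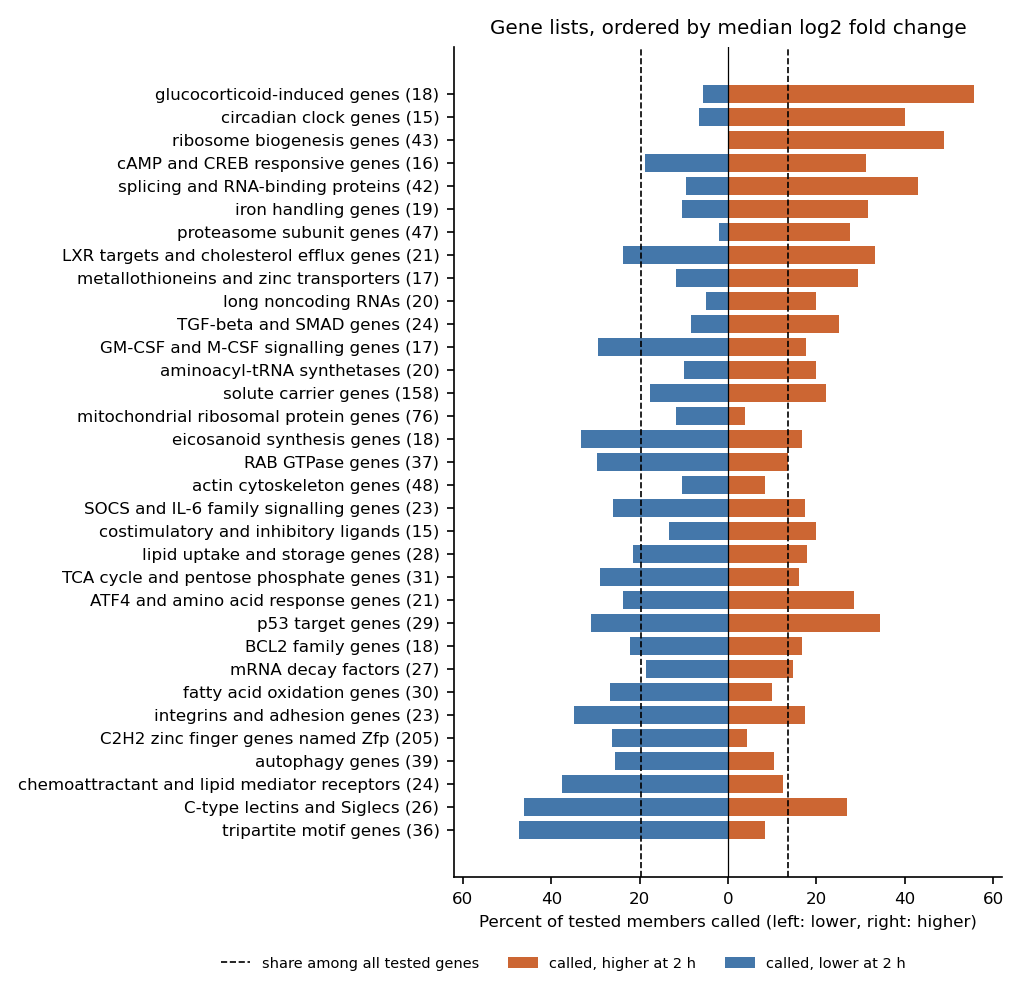
Share of tested members called higher (right, orange) and lower (left, blue) at 2 h for the gene lists with at least 15 tested members, ordered by median log2 fold change, with the number tested in brackets. Dashed lines mark the shares among all tested genes, 13.6% higher and 19.7% lower.

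Surface receptors for attractants and lipid mediators fell more often than genes at large. Of 24 tested genes 9 fell (37.5%, against 19.7% of all genes), 3 rose (12.5%, against 13.6%) and 12 did not pass. Their median was -0.16. Fpr1, the receptor for formylated bacterial and mitochondrial peptides, was 292, 270.4, 259 and 297 RPKM in naive and 105, 67.7, 69 and 158 RPKM at 2 h. C5ar2, another receptor for the complement fragment C5a, was 6.87, 8.15, 7.21 and 7.16 RPKM in naive and 2.62, 3.32, 2.95 and 3.6 RPKM at 2 h (log2 fold change -1.02 ± 0.09, SE, adjusted p = 0.000156). The first was least reduced in replicate 4, and the second was reduced alike in all 4 libraries. P2rx7, an ATP-gated channel, fell to 56.5% of its naive mean, and Cxcr4, the receptor for Cxcl12, to 62%. Ccr1, a receptor for Ccl3 and related chemokines, rose from 51 to 66.3 to 68.3 to 119 RPKM (adjusted p = 0.0222), and was not called without naive replicate 1, naive replicate 2 or 2 h replicate 2.

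C-type lectins, which bind sugars and other ligands on microbes and cells, split by member. Of 26 tested C-type lectin, Siglec and CD300 genes 12 fell (46.2%, against 19.7% of all genes), 7 rose (26.9%, against 13.6%) and 7 did not pass. Cd69, an early activation marker of lymphocytes that macrophages also express, was 9.61, 12.5, 10.1 and 11.8 RPKM in naive and 3.96, 3.4, 4.52 and 3.83 RPKM at 2 h. Siglec1, the sialoadhesin of macrophages, fell from 48.6 to 55 to 27.9 to 32.1 RPKM, and Clec12a, an inhibitory lectin, fell to 50.5% of its naive mean. Among the risers, Clec4d was 7.57 to 12.5 RPKM in naive and 18.6 to 21.4 RPKM at 2 h, and Clec4e, which encodes its partner Mincle, was 1.34 to 2.09 and 2.82 to 3.63 RPKM. Both signal through the Fc receptor gamma chain, whose gene Fcer1g fell to 76.3% of its naive mean (adjusted p = 0.000715). Cd300lf, an inhibitory receptor, rose 2.28-fold. Summed T and NK cell markers were also lower at 2 h, and their part in the fall of Cd69 was not tested.

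Feedback genes did not move as a block. Dual-specificity phosphatases remove activating phosphates from MAP kinases. Of 13 tested 5 fell (38.5%, against 19.7% of all genes), 1 rose (7.69%, against 13.6%) and 7 did not pass. Dusp6, which acts on ERK in the cytoplasm, was 56.5, 61.7, 51 and 58.2 RPKM in naive and 29.7, 21.9, 18.5 and 23.3 RPKM at 2 h (adjusted p = 0.000356), while Dusp5, which acts on ERK in the nucleus, was 34.7, 40.2, 37.5 and 43.9 RPKM in naive and 101, 131, 94.9 and 54.2 RPKM at 2 h (adjusted p = 0.00577). The regnase family of RNases, which degrade cytokine mRNA, also diverged. Zc3h12a rose from 17.5 to 19.7 to 30.6 to 69.2 RPKM and Zc3h12c from 0.24 to 0.555 to 1.08 to 2.44 RPKM, whereas Zc3h12d fell from 4.44 to 6.5 to 1.16 to 2.06 RPKM.

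The p53 target list split nearly evenly. Of 29 tested genes 10 rose (34.5%, against 13.6% of all genes), 9 fell (31%, against 19.7%) and 10 did not pass. Plk3, a stress kinase, was 16.8, 16.4, 17.1 and 18.6 RPKM in naive and 74.9, 58, 44.8 and 71.8 RPKM at 2 h (log2 fold change 1.77 ± 0.15, SE, adjusted p = 0.000144). Gadd45b, a stress sensor, was 5.57, 3.98, 4.54 and 4.13 RPKM in naive and 17.5, 29.6, 33.9 and 9.6 RPKM at 2 h, and Cdkn1a, the cell cycle inhibitor p21, rose 1.95-fold. Of the death-promoting BCL2 family genes, Bbc3 (PUMA) fell from 2.26 to 3 to 0.915 to 1.35 RPKM and Bcl2l11 (BIM) from 5.68 to 6.55 to 2.7 to 3.91 RPKM, whereas Pmaip1 (NOXA) rose 1.97-fold. Fas, a death receptor, fell to 61.9% of its naive mean, and Trp53 itself to 69.1%. Bcl2l1, whose main product protects cells, rose 2.29-fold (adjusted p = 0.0295), a call lost in 7 of 19 other settings.

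Tripartite motif (TRIM) genes, many of which encode ubiquitin ligases of antiviral defence, fell in 17 of 36 tested members, against 19.7% of all genes, while 3 rose and 16 did not pass, with a median of -0.22. Trim30d was 4.75, 5.48, 5.07 and 5.62 RPKM in naive and 1.87, 1.94, 1.86 and 2.23 RPKM at 2 h (adjusted p = 5.27e-05), although its transcript is 90.1% identical to that of Trim30a and reads may be split between them. Trim47 fell to 49.2% of its naive mean, while Trim25, which ubiquitinates the RNA sensor RIG-I, rose 1.72-fold, a call lost in 2 of 20 other settings. With median-ratio scaling 12 TRIM genes (33.3%) fell, against 16% of all genes. C2H2 zinc finger genes named Zfp were nearer to the background in falls. In rises they were well below it, as 13.6% of all genes rose. Of 205 tested 54 fell (26.3%), 9 rose (4.39%) and 142 did not pass, and with median-ratio scaling 44 fell (21.5%) and 11 rose (5.37%), where 16% of all genes fell and 16.5% rose. Single members included Zfp217, which fell from 10.3 to 12.2 to 4.4 to 5.16 RPKM, and Zfp1, which rose 1.88-fold. Neat1, the nuclear RNA that scaffolds paraspeckles, was 35.6, 25, 28.9 and 23.4 RPKM in naive and 7.59, 14.7, 26.1 and 10.4 RPKM at 2 h. Its groups overlapped in 2 h replicate 3, and its call (adjusted p = 0.0385) was lost in 9 of 19 other settings.

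Lipid and amino acid genes changed by member. Ch25h, which makes the oxysterol 25-hydroxycholesterol, was 20.5, 15.6, 21.6 and 25.4 RPKM in naive and 39.7, 97.9, 121 and 38 RPKM at 2 h. Scd1, a fatty acid desaturase, rose 2.82-fold, while the cholesterol exporter Abcg1 fell to 74.3% of its naive mean (adjusted p = 0.00122). Hilpda, an inhibitor of the lipase Pnpla2 on lipid droplets, was 4.51, 4.23, 7.17 and 8.38 RPKM in naive and 67.1, 55.2, 16.6 and 13.1 RPKM at 2 h. G0s2, another inhibitor of that lipase, went the other way, from 8.35 to 9.96 to 2.4 to 6.25 RPKM. Pla2g7, which inactivates platelet-activating factor, was 0.202 to 0.967 RPKM in naive and 4.25 to 6.05 RPKM at 2 h, and Ptafr, the receptor for that lipid, rose 1.78-fold, a call lost in 3 of 19 other settings. Fatty acid oxidation genes were close to genes at large. Of 30 tested 8 fell (26.7%, against 19.7% of all genes) and 3 rose (10%, against 13.6%), and with median-ratio scaling 5 fell (16.7%, against 16%). The peroxisomal enzyme gene Hsd17b4 fell to 60.6% of its naive mean (adjusted p = 6.99e-05).

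Of 11 tested genes of polyamine, arginine and itaconate metabolism 4 rose (36.4%, against 13.6% of all genes), 1 fell (9.09%, against 19.7%) and 6 did not pass. Their median was 0.07. Arg2, the mitochondrial arginase, was 2.47, 2.3, 1.78 and 2.06 RPKM in naive and 13, 7.58, 11.2 and 12.7 RPKM at 2 h, and Odc1, the first enzyme of polyamine synthesis, was 16.8 to 23.3 and 27.1 to 51.3 RPKM. Sat1, which starts polyamine breakdown, was the gene that fell, from a mean of 52.5 to 45.3 RPKM (adjusted p = 0.0233). Outside that list, Gatm, which uses arginine to make the creatine precursor, rose from 0.832 to 1.86 to 8.89 to 12.7 RPKM (adjusted p = 4.11e-05). Slc7a1, an arginine importer, rose 2.56-fold, and Slc3a2, the heavy chain shared by several amino acid transporters, 2.14-fold. Slc7a7, a transporter of cationic amino acids that pairs with Slc3a2, fell from 23.1 to 26.5 to 15.7 to 17.5 RPKM (adjusted p = 0.000398). Of 158 tested solute carrier genes 35 rose (22.2%, against 13.6% of all genes) and 28 fell (17.7%, against 19.7%). Of 19 tested iron handling genes 6 rose (31.6%, against 13.6% of all genes), 2 fell (10.5%, against 19.7%) and 11 did not pass. Ftl1, the ferritin light chain, rose 1.32-fold, and Tfrc, the transferrin receptor, fell from 1.85 to 2.24 to 0.708 to 1.5 RPKM (adjusted p = 0.00959). Slc25a28, a mitochondrial iron importer, rose 1.42-fold.

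Secreted factors and their signals included Pdgfb, the platelet-derived growth factor B chain, which was 1.17, 1.47, 1.01 and 1.06 RPKM in naive and 5.97, 5.63, 4.99 and 4.59 RPKM at 2 h (adjusted p = 4e-05). Plaur, the receptor for the urokinase activator, rose 1.79-fold. Id2, a repressor of helix-loop-helix transcription factors, was 44.9, 44.6, 50.1 and 47.5 RPKM in naive and 214, 312, 355 and 140.4 RPKM at 2 h (adjusted p = 0.000484). All 4 libraries at 2 h were above naive for Pdgfb and Id2, and Id2 was lowest in replicate 4. Of 17 tested GM-CSF and M-CSF signalling genes 3 rose (17.6%, against 13.6% of all genes), 5 fell (29.4%, against 19.7%) and 9 did not pass. Their log2 fold changes lay between -0.53 and 0.56. Csf2rb2, a receptor subunit whose transcript is 95.1% identical to Csf2rb, rose 1.36-fold, and Stat5b fell to 66.7% of its naive mean. Vesicle genes of the RAB family included both a rise, of Rab20 from 11.9 to 14.9 to 29.1 to 56 RPKM, and falls, of Rab32 to 50.8% and Rab44 to 49.4% of the naive mean. Of 37 tested RAB genes 5 rose (13.5%, against 13.6% of all genes), 11 fell (29.7%, against 19.7%) and 21 did not pass. Tubb2a, a beta tubulin, rose from 3.04 to 5.37 to 9.58 to 15.1 RPKM, and Tppp, a tubulin-binding protein, was 9.02, 11.6, 7.71 and 9.02 RPKM in naive and 2.52, 0.66, 1.18 and 5.33 RPKM at 2 h.

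The libraries at 2 h varied more among themselves than the naive libraries did. The SD on the log2 scale was larger at 2 h in 67.3% of tested genes, with a median of 0.14 against 0.09 in naive. Across genes, which are no independent replicates, Pearson's r was 0.969 to 0.983 within 2 h and 0.981 to 0.985 within naive. Replicate 4 lay closest to naive of the 4 libraries in 110 of the 216 rises and 43 of the 70 falls of at least 1 on the log2 scale. The largest spreads among named genes followed different orders. Nr4a1, an orphan nuclear receptor gene, was 108, 65.9, 12.1 and 24.7 RPKM in the 4 libraries at 2 h and 8.11 to 12.7 RPKM in naive, so replicate 3 lay inside the naive range. Ets2, a transcription factor gene, was likewise highest in replicate 1 and lowest in replicate 3, at 30.5, 14.5, 6.48 and 18.3 RPKM. Ccl17, a chemokine gene, was 15, 28.4, 24.1 and 5.65 RPKM, highest in replicates 2 and 3 and inside the naive range of 3.91 to 6.65 RPKM in replicate 4. The calls of Nr4a1 and Ccl17 were each lost in 8 of 20 other settings and that of Ets2 in 5. What sets these libraries apart is not in the labels. Without 2 h replicate 4, 1603 genes rose and 2487 fell.

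**Figure D4:**
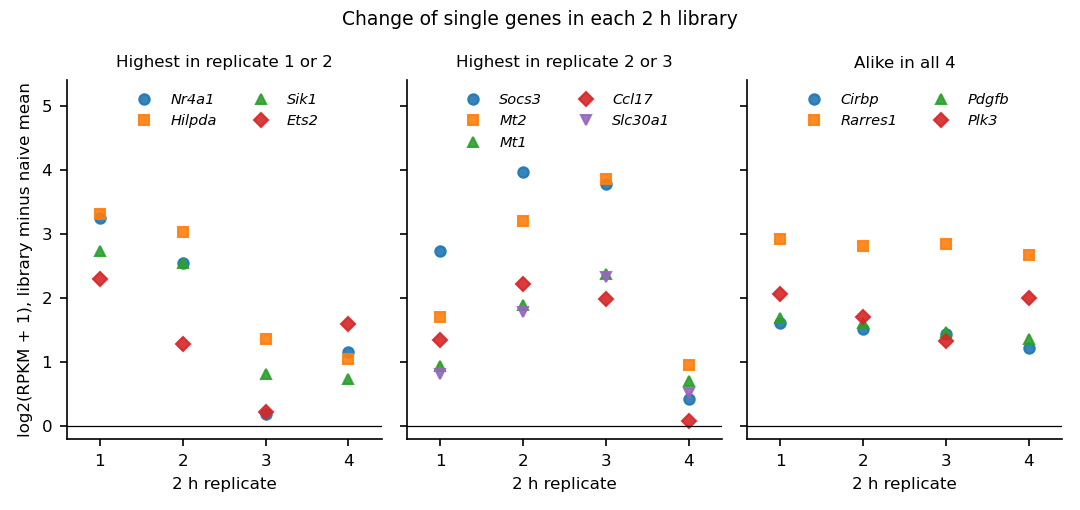
Change of 13 genes in each library at 2 h, as log2(RPKM + 1) minus the naive mean (y axis), by replicate (x axis), in 3 panels grouped after their values were seen. Genes in the left panel are highest in replicate 1, those in the middle in replicate 2 or 3, and those in the right panel differ little between the 4 libraries.

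Genes near 0 in naive were chosen by their values, so these describe the choice and carry no test. The rule asked for 2 RPKM or more on average at 2 h, a naive mean of at most 5% of it, and no overlap between the groups. It took 38 genes on 16 chromosomes, 23 of them pseudogenes and 9 protein-coding, and the reverse rule took 0. No gene with a rise of at least 3 on the log2 scale lay outside the 38. Just inside the limit, the naive mean of Tma7-ps was 4.18% and that of B3galnt1 4.06% of the mean at 2 h, and just outside it that of Itpa-ps1 was 6.02% and that of Rapgef5 6.17%. Of the 38 genes 12 had no read in any naive library. The values at 2 h were even for most of these genes, with a median coefficient of variation of 17.2%, against 27.3% for the other 178 rises of at least 1 on the log2 scale. Their summed level was 3.31, 3.18, 5.4 and 15.1 RPKM in naive, 745.9, 629.8, 709 and 620.3 RPKM at 2 h and 12, 16.6, 18.1 and 71.7 RPKM at 24 h. Replicate 4 was the highest of its group both in naive and at 24 h. The median level at 24 h was 4.53% of that at 2 h, and only 2 genes lay above all naive libraries in all 4 libraries at 24 h.

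**Figure D5:**
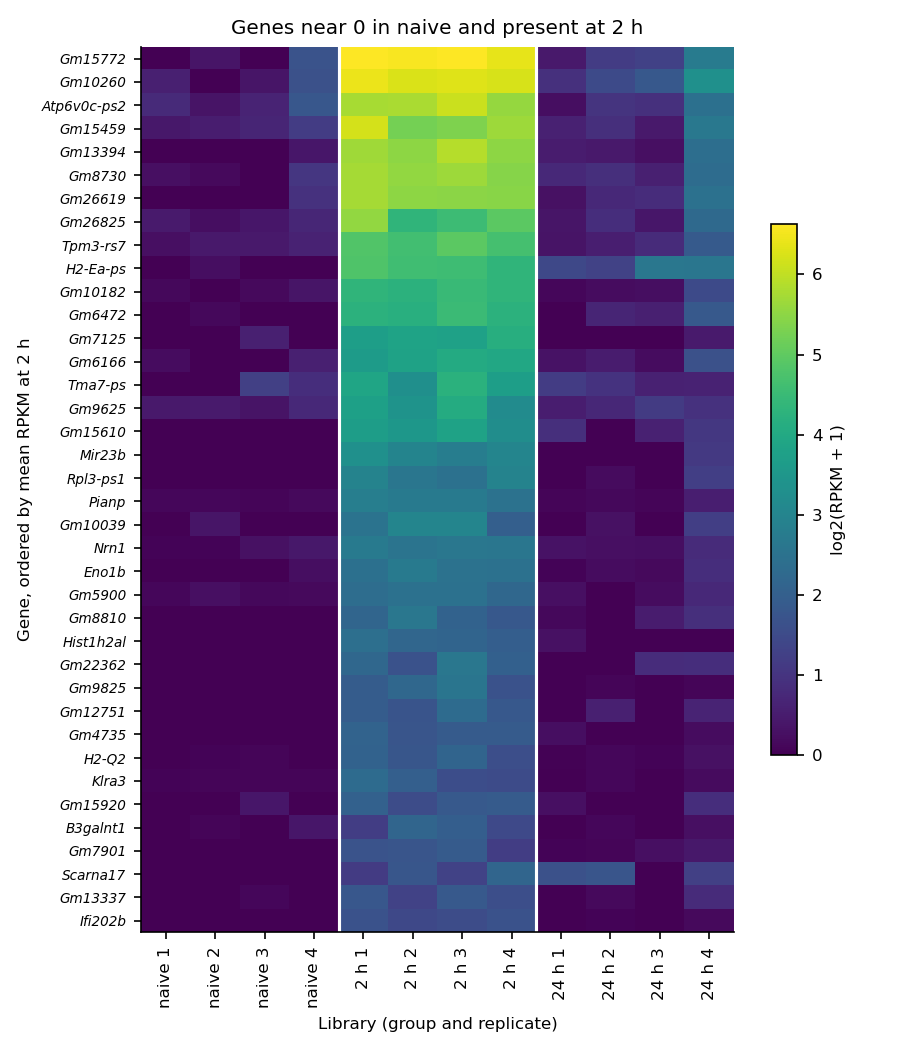
Log2(RPKM + 1) (colour) of the 38 genes near 0 in naive, 1 row each, in the 12 libraries. Values are high in the 4 libraries at 2 h and low in naive and at 24 h, with faint signal in replicate 4 of both.

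Most of the 38 resemble an expressed gene. In 27 of them the transcript was at least 90% identical, by blastn on the same strand, to that of a gene among the 10934 tested. The match covered at least 50% of the transcript in 25, and 35.9% of it in Gm8810 and 31.9% in H2-Q2. Gm15772, a processed pseudogene on chromosome 5 (3236431 to 3236868), matches Rpl26, a ribosomal protein gene, at 99.5% identity. Per 1000000 library reads it took 0.277 in naive and 40.7 at 2 h, while Rpl26 went from 160 to 109.2, and their sum from 160.2 to 149.9. Gm6472 matches Rps7 at 99.4%, and on the same scale took 0.0315 in naive and 23.2 at 2 h. Rps7 took 284.4 and 260.4, and the sums were 284.4 and 283.6. These pairs and the next were picked after their values were seen, and other pairs differ. Tpm3-rs7 took 0.79 in naive and 55.6 at 2 h, and Tpm3 took 316.4 and 316.9. Hspa8, a chaperone gene that matches Gm15459, went from 1713 to 763.6, while Gm15459 went from 1.31 to 96.2. The 27 genes share 21 different matches, of which 6 fell, 1 rose and 14 were not called. Of all genes tested 19.7% fell and 13.6% rose. How reads that fit both members of a pair were assigned is not given in the sources used here.

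Because the search covered the same strand only, an antisense transcript of a copy could not match. Of the lincRNA genes without such a match, Gm26619 (chromosome 13, 97751112 to 97760965) overlaps Gm10260 (97760072 to 97760632) on the opposite strand. Gm26825 (chromosome 5, 5781530 to 5783636) likewise lies across Gm15459 (5781615 to 5783555), a pseudogene whose transcript is 99.7% identical to Hspa8. Gm26619 was at 52.5, 44.4, 43.6 and 42.7 RPKM at 2 h and Gm10260 at 86, 74.8, 77.8 and 73.7 RPKM, and both were near 0 in naive. Gm26825 was at 46, 19.4, 22.1 and 29.9 RPKM and Gm15459 at 72, 36.9, 40 and 49.3 RPKM, each highest in replicate 1. Over the 2 h libraries Gm15459 had 3539 reads and Gm26825, which spans it, 2189. Whether counting used strand is not given, and how reads of a gene and its antisense partner were divided was not tested.

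A few of the 38 have no near-identical expressed copy on the same strand. H2-Ea-ps, the MHC class II E alpha gene, which is not transcribed in mice of the b haplotype such as B6, was 0, 0.184, 0 and 0 RPKM in naive and 27.1, 23.4, 22.6 and 19.3 RPKM at 2 h. It had 1 read over the naive libraries and 586 over those at 2 h. At 24 h it was at 1.7, 1.48, 5.2 and 5.11 RPKM, above naive in each library. Ifi202b, an interferon-inducible gene that B6 mice express little, had 0 reads in naive and 123 at 2 h, at least 34.1-fold higher against a floor of 3 reads over the naive group, a bound that covers counting error only. Pianp, Nrn1 and B3galnt1 are protein-coding members with no such copy. B3galnt1, a glycosyltransferase gene, was 0, 0.0622, 0 and 0.323 RPKM in naive and 1.29, 3.48, 2.93 and 1.77 RPKM at 2 h. Nrn1, a neuronal growth factor gene, was 0.0492, 0.0546, 0.231 and 0.354 RPKM in naive and 5.64, 4.81, 5.19 and 5.08 RPKM at 2 h, and none of its 4 tested neighbours within 1 Mb was called. Within 1 Mb of H2-Ea-ps 7 of 85 tested neighbours rose and 16 fell, where 13.6% and 19.7% of all genes did. Within the same distance of Pianp 3 of 39 rose and 14 fell, of B3galnt1 1 of 6 rose and 2 fell, and of Ifi202b 1 of 5 rose and 1 fell.

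Genes known to differ between inbred strains formed a list of their own, with 9 members tested. Of these 5 rose (55.6%, against 13.6% of all genes), 2 fell (22.2%, against 19.7%) and 2 did not pass. The risers H2-Ea-ps and Ifi202b are also among the 38 genes chosen by their values, so the count partly repeats that choice. Besides H2-Ea-ps and Ifi202b, the risers were Wdfy1, Gbp2b and Nnt. Wdfy1, which encodes an endosomal protein, was 0.65 to 0.785 RPKM in naive and 1.09 to 1.45 RPKM at 2 h, a 1.89-fold rise (adjusted p = 0.00417). Gbp2b, an interferon-inducible GTPase gene, rose 1.49-fold (adjusted p = 0.0358), a call lost in 7 of 19 other settings. Nnt, which carries a deletion in the substrain C57BL/6J, was 3.62, 3.51, 3.53 and 3.62 RPKM in naive and 4.54, 4.08, 4.27 and 4.65 RPKM at 2 h, and so was detected in every library. Nlrp1b, an inflammasome sensor that differs between strains, fell to 64.2% of its naive mean, and Naip5, a sensor of flagellin, to 82.4%. Klra3 and H2-Q2 are not in that list and belong to the 38 genes near 0 in naive. Klra3, a lectin-like receptor of natural killer cells, was 0.0512, 0.0568, 0.0601 and 0.0736 RPKM in naive and 4.03, 3, 1.94 and 1.86 RPKM at 2 h, while the summed T and NK markers were lower at 2 h. Among those markers only Klrb1c had a higher mean at 2 h, at 0.0218 to 0.138 RPKM in naive and 0.214 to 0.4335 RPKM at 2 h. It was too low to be tested. The nearest match of Klra3, Klra10, was also too low to be tested. H2-Q2, a class I gene, was 0 to 0.0554 RPKM in naive and 2 to 3.38 RPKM at 2 h, and its transcript matches H2-D1 at 93.8% over 31.9% of its length. The labels give 1 genetic background for all libraries. A difference of strain and the time after reperfusion cannot be told apart in the comparison of 2 h with naive, and this touches every change given above.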

How the data were processed

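RNA sequencing libraries of polyadenylated RNA, isolated with the PicoPure kit per the labels' protocols, were quantified by the authors, who deposited RPKM values for each Ensembl gene. The tools named in the submitters' processing notes are bcl2fastq, TopHat2 and HTSeq, with build mm10. Their versions, the annotation, the strand setting and the gene lengths were not given in the sources used. Whole reads (tolerance 0.02) could be recovered from the steps of the RPKM values for 10932 of 10934 tested genes. Depth sets the precision of each value, and limits from it cover counting error only.

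Symbols came from the GENCODE M21 annotation, of the same assembly as mm10. The test was limma 3.58.1 (R 4.3.3) on log2(RPKM + 1) of the 8 libraries, with a variance trend, two-sided moderated tests and Benjamini-Hochberg adjustment over all 10934 genes. Folds and percentages of naive are ratios of mean RPKM. The steps were tested on simulated data, and blastn 2.17.0 searched for near-identical transcripts on the same strand only. The 44 gene lists, the members and the rules were chosen with earlier results of these data known. The naming rule takes the 12 largest rises and falls that were called, protein-coding, without overlap and with a mean of at least 5 RPKM, 3 members of each list by p, the 8 most abundant and all protein-coding genes near 0 in naive, and the 8 called genes with the largest excess of spread at 2 h. Some genes the rule names are not reported here, and lists not described in the text are drawn in the plot of lists where they have at least 15 tested members. The fit was repeated with 20 other settings.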

Additional observations from a re-analysis of the deposited data

Results flagged for a closer look

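Among 222 named genes, each looked at in both groups of 4 libraries (444 groups), 15 groups had a library whose gap to the nearest other library was a larger part of the group's range than Dixon's critical value, which chance passes in about 1 of 20 groups. The 15 groups are fewer than that rate gives over 444, so they are listed as a description only. In naive, replicate 4 was flagged upward in 4 genes near 0 there: Gm15772 at 2.24 RPKM, Gm26619 at 0.915 RPKM, Gm13394 at 0.327 RPKM and Eno1b at 0.186 RPKM, with the other 3 libraries at 0 to 0.288 RPKM. H2-Ea-ps was at 0.184 RPKM in naive replicate 2 and at 0 in the other naive libraries. Where all other libraries are at 0, as for Gm26619, Gm13394, Eno1b and H2-Ea-ps, any read at all is flagged by construction. These genes had 6, 2, 2 and 1 reads over the naive libraries. Naive replicate 2 was also low for Gars, a tRNA synthetase gene, at 94.9 RPKM, for Mgst3, a glutathione transferase gene, at 45.3 RPKM and for Hist3h2a, a histone gene, at 2.94 RPKM. Naive replicate 4 was low for Psmd12, a proteasome gene, at 9.05 RPKM and for Ncl at 21.6 RPKM. At 2 h, Socs2, a cytokine feedback gene, was low in replicate 4 at 3.79 RPKM. Replicate 3 was high for Pdhb, a pyruvate dehydrogenase gene, at 60.7 RPKM and for Ptafr at 4.48 RPKM. Replicate 1 was high for the autophagy gene Gabarapl1 at 58.7 RPKM, and replicate 2 for Eno1b at 5.56 RPKM.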

How the results depend on the processing

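Of 222 named genes 192 kept their direction and call in every other setting they could be fitted in, no gene reversed, and 30 lost the call in at least 1 setting. The 3645 calls became 2263 with a filter at 5 RPKM, which tests fewer genes, with 1270 lower at 2 h. Genes changed by at least 1 on the log2 scale, 286 in all (216 higher, 70 lower), numbered 493 with a pseudocount of 0.1 (206 lower) and 559 with voom on the recovered reads (258 lower). With a pseudocount of 0.5, 121 were lower. With the filter at 5 RPKM they were 156 (117 higher, 39 lower), and with protein-coding genes only 173 (125 higher). A smaller pseudocount or none shrinks low genes less, by construction. Leaving out 1 library in turn gave 2703 to 4090 calls in all. With the replicate number as a block 3047 genes were called, 1281 higher and 1766 lower. Same-numbered naive and 2 h libraries deviated from their group means with correlations of -0.057 to 0.045, so no pairing by number was visible. These correlations cannot show whether same-numbered libraries share a day or batch. The 38 genes near 0 in naive were 22 when 5 RPKM or more was asked for at 2 h and 9 when only protein-coding genes were taken. Genes of low level or few reads, such as Mir23b with 5 to 9 reads per library at 2 h, are limited by depth.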
